A study of Mus musculus with 2 samples.

Results

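The genes described here make and load the peptide receptor MHC class I, and comprise 10 of the 27998 genes listed for the series. They are taken by name, each in every class and both libraries: H2-K1, H2-D1, B2m, Tap1, Tap2, Tapbp, Nlrc5, Psmb8, Psmb9 and Psmb10, and all 10 are listed in the deposited counts. The series holds 2 single-cell libraries of the abdominal aorta of wild-type C57BL/6J mice, a mouse model of Kawasaki disease vasculitis. The LCWE library pools 7 aortas from mice given LCWE, a cell wall extract of Lactobacillus casei, and the PBS library pools 9 aortas from mice given the vehicle PBS. Both were collected 2 weeks after injection, from the left renal artery down to the bifurcation, and the age of the mice is not given in the sources used here. Aortas were pooled, so the libraries carry no animal identity, and with 1 library per treatment no difference between treatments could be tested. Intervals below are exact 95% counting intervals and cover counting error only.

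Nearly every nucleated cell displays fragments of its own proteins on MHC class I, where CD8 T cells read them and NK cells sense their absence. H2-K1 and H2-D1 encode the classical heavy chains of this mouse strain, and B2m encodes beta-2-microglobulin, the light chain without which they do not fold stably. The proteasome cuts the peptides, the TAP transporter (Tap1 and Tap2) carries them into the endoplasmic reticulum, and tapasin (Tapbp) bridges TAP and the empty receptor. Psmb8, Psmb9 and Psmb10 encode the catalytic subunits LMP7, LMP2 and MECL-1, which interferon gamma induces in many cells and which take the places of the constitutive subunits encoded by Psmb5, Psmb6 and Psmb7 to form the immunoproteasome. Nlrc5 is a transcriptional coactivator of class I genes and of several of these partners.

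Of the 10 genes, 7 lie on mouse chromosome 17, in or beside the H2 complex (GENCODE vM21, GRCm38). H2-K1 spans chr17:33996017-34000347 and H2-D1 chr17:35262730-35267499, and Tapbp spans chr17:33915899-33929292. Psmb9 at chr17:34181987-34187764 and Tap1 at chr17:34187553-34197225 are divergent neighbours whose 5′ ends overlap, followed by Psmb8 at chr17:34197721-34201454 and Tap2 at chr17:34203527-34216321. B2m lies at chr2:122147686-122153083, Nlrc5 at chr8:94434356-94527272 and Psmb10 at chr8:105935735-105938444. H2-K1, H2-D1 and the other H2 class I genes are close paralogs, so their counts are uncertain to the extent that reads were split between them. The strand setting of the counting is not given in the sources used here, and Psmb9 and Tap1 overlap on opposite strands.

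RefSeq promoters (250 bases before to 50 after a start, GRCm38.p6) were matched for 8 of the 10 genes, Tap2 and Nlrc5 being the exceptions. They were searched on both strands for GAAA followed by any 2 bases and GAAA again (the core of an interferon-stimulated response element), TTCNNNGAA (a gamma-activated site) and CCAAT. The promoters of genes that differed together in fibroblasts, below, are shown because these sequences are where interferon and class I regulators are known to act. That of Psmb9 is not repeated because it overlaps that of Tap1, and capitals mark every match.
H2-K1 (chr17:34000284-34000583, minus strand): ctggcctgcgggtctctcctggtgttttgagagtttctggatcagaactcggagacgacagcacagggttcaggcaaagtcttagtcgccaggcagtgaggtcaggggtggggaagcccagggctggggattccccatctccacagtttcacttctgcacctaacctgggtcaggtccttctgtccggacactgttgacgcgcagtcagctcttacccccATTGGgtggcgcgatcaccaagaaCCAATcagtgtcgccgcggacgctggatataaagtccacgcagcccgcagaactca
H2-D1 (chr17:35262844-35263143, plus strand): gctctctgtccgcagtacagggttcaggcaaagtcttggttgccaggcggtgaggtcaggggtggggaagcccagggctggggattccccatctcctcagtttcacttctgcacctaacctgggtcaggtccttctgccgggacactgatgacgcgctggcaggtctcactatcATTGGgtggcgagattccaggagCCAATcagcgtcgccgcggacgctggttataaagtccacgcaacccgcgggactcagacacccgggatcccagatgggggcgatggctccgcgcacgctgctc
B2m (chr2:122147437-122147736, plus strand): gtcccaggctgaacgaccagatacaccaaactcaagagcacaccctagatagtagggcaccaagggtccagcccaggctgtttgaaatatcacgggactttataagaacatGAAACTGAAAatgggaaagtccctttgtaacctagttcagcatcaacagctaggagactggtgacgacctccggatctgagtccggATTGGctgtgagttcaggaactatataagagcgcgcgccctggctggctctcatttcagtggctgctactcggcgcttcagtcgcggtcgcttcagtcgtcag
Tap1 (chr17:34187306-34187605, plus strand): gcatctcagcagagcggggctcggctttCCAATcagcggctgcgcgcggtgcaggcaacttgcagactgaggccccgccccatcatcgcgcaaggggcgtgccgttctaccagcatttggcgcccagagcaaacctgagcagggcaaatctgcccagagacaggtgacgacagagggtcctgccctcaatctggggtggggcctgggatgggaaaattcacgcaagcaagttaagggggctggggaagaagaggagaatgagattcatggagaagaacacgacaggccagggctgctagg
Psmb8 (chr17:34197945-34198244, plus strand): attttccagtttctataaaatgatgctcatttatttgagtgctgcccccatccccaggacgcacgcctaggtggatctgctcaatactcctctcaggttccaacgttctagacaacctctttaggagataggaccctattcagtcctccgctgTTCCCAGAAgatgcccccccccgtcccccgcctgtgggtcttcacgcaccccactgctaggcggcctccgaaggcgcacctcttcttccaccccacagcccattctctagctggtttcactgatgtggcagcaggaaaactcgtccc
Psmb10 (chr8:105938343-105938642, minus strand): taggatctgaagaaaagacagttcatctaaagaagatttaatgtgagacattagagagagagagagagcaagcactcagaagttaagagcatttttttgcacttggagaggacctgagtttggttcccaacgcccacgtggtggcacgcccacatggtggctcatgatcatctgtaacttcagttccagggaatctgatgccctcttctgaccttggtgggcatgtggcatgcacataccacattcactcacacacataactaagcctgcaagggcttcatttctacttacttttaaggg
The H2-K1 and H2-D1 promoters shared an unbroken run of 47 bases and matched at 70.9% of 254 ungapped positions, against 36.3% or less for every other pair of the 8 promoters read on the same strand. Tap1 and Psmb9 share 275 bases of their windows, read from opposite strands. The exact letters of the response element core occurred in B2m alone of the 8 genes, at 139 to 130 bases before the start, and in 3.44% of 32851 mouse promoters. Elements that vary from these letters were not searched for, so a gene without a match may still hold one. TTCNNNGAA occurred in Psmb8 alone and in 8.3% of all promoters, and CCAAT in 6 of the 8 genes and in 37.4% of all. The CCAAT matches of Tap1 and Psmb9 are the same site, read from opposite strands. The Psmb10 window held none of the 3. A match is a string of letters in this window and was not tested for function.

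The cells carry the authors' 9 broad and 25 fine class names, and each class compared below held UMIs of all its own markers in both libraries. The LCWE library has 5091 cells and 42275754 UMIs, the PBS library 5386 cells and 62600808 UMIs, and 8 barcodes occur in both. Cell make-up differs strongly: smooth muscle cells are 1.83% of LCWE cells and 76.9% of PBS cells, and lymphocytes of the T, NK and ILC class are 43.2% of LCWE cells and 1.39% of PBS cells. A level is a gene's UMIs per 1000000 UMIs of a class (CPM), which compares a gene with itself across classes, since 3′ counts of different genes are not on 1 scale. The library sums show this make-up: H2-K1 was at 1516 CPM in the whole LCWE library and 236 CPM in the whole PBS library, and the T, NK and innate lymphoid class held 47.4% of its LCWE UMIs and 8.66% of its PBS UMIs. All comparisons below are therefore within a class.

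Leukocyte RNA outside leukocytes bears on each stromal result. UMIs of Ptprc, Coro1a, Laptm5 or Rac2, which leukocytes make and stromal cells should lack, were found in 34 of 93 LCWE smooth muscle cells and in 28 of 4141 PBS smooth muscle cells. In fibroblasts they were found in 270 of 813 LCWE cells and 9 of 868 PBS cells, and in blood endothelial cells in 111 of 239 LCWE cells and 7 of 217 PBS cells. Over 8 leukocyte genes, the median level in LCWE stroma was 10.3% of the LCWE leukocyte level in smooth muscle, 5.2% in fibroblasts and 8.99% in blood endothelial cells; in PBS stroma it was 0.03%, 0.0838% and 1.34%. LCWE leukocytes held 2279 CPM of H2-K1. Ratios of the 10 genes in smooth muscle, fibroblasts and blood and lymphatic endothelial cells are given or plotted for all cells. They are also given or plotted for cells with none of these UMIs. Inducible shares, per-cell sums and values of other named genes are given over all cells of a class only.

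**Figure D1:**
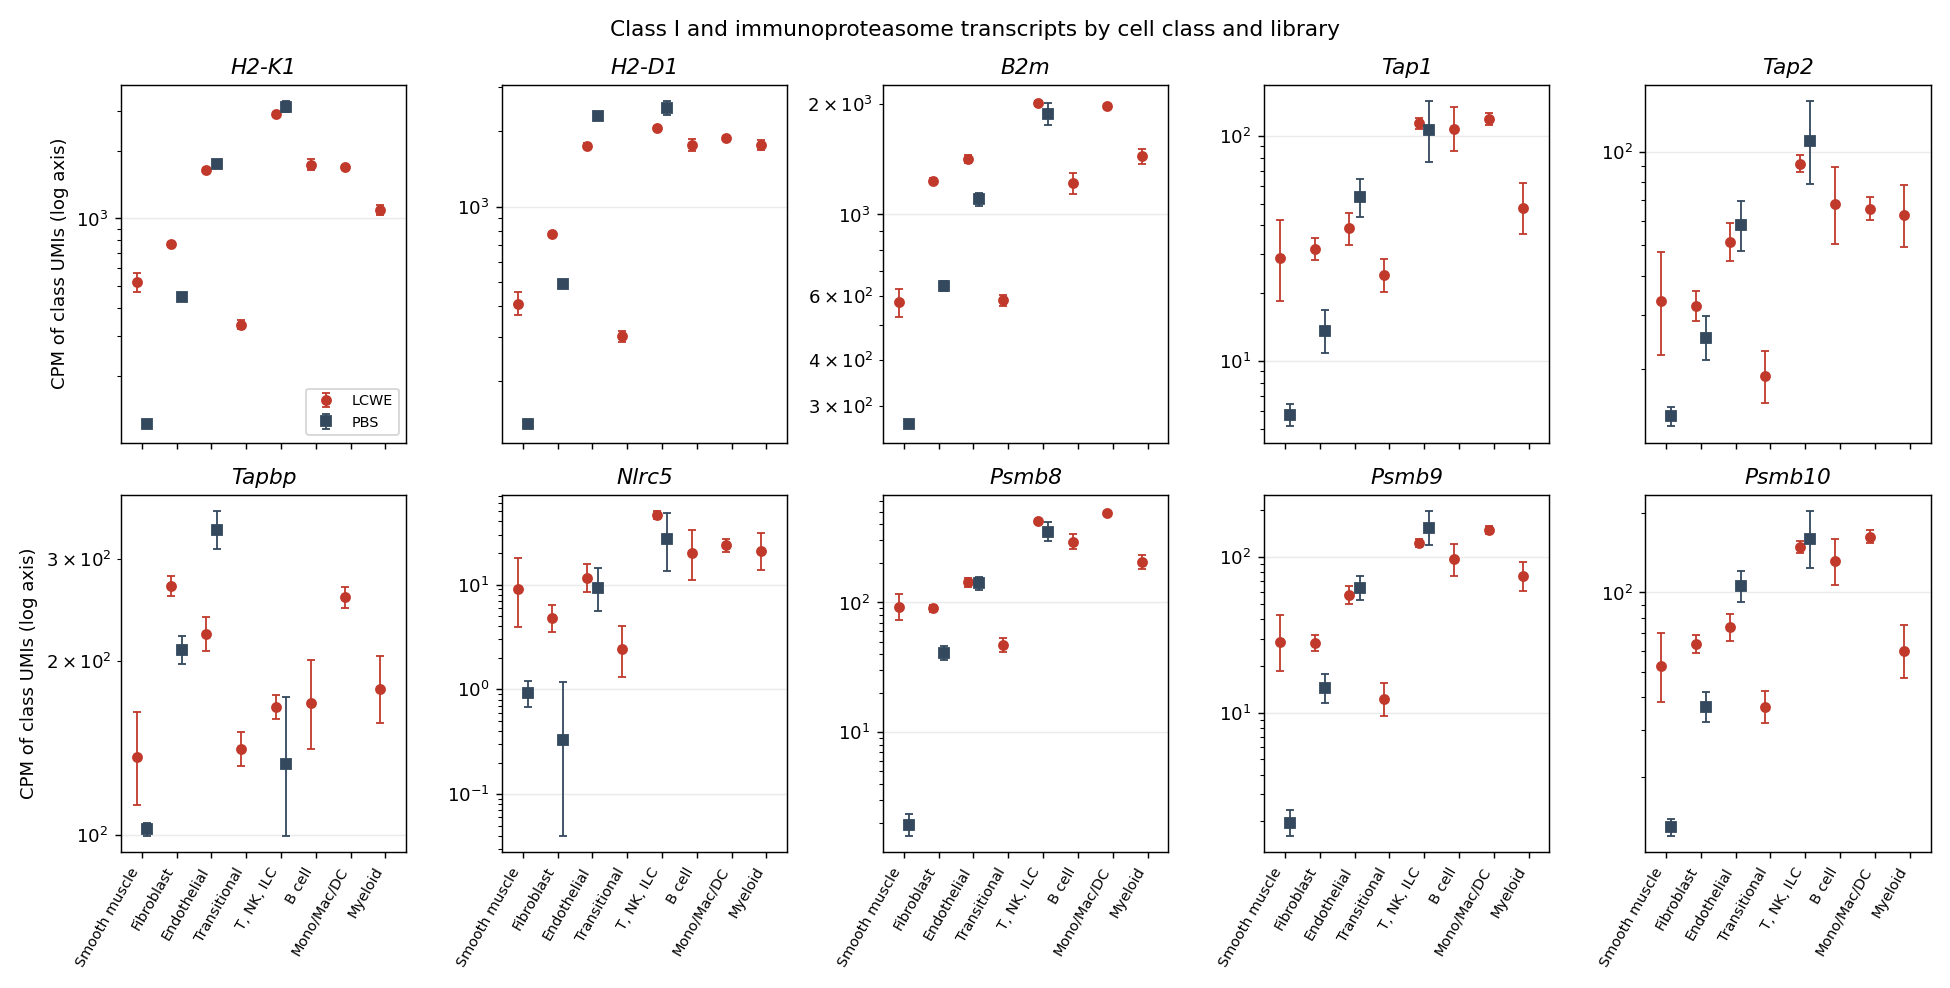
CPM (log axis) of the 10 genes in the authors' broad classes with at least 50 cells, LCWE as circles left of PBS as squares, with exact 95% Poisson intervals. Psmb8 was at 1.95 CPM in PBS smooth muscle cells and 41.1 CPM or more in every other class shown, and Tapbp varied least between classes.

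Fibroblasts differed across most of the pathway. Of the 10 genes, 8 were higher in LCWE fibroblasts, where higher or lower means a ratio of at least 1.5-fold with an interval excluding 1 and at least 20 UMIs in both libraries together. By the same rule 16.3% of 12357 measured genes were higher and 12.7% lower. The median log2 ratio of LCWE over PBS was 0.88 for the 10 genes and 0.04 for all measured genes.

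The receptor chains were among the 8. H2-K1 was at 770.5 CPM in LCWE fibroblasts (7693 UMIs, 813 cells) and 447 CPM in PBS fibroblasts (2721 UMIs, 868 cells), a ratio of 1.72 (1.65 to 1.80). H2-D1 was at 775 CPM in LCWE fibroblasts and 489.6 CPM in PBS fibroblasts (1.58, 1.52 to 1.65). B2m was at 1237 CPM in LCWE fibroblasts and 637 CPM in PBS fibroblasts (1.94, 1.87 to 2.01). The difference was spread over the cells: with each cell thinned to 1600 UMIs, the median sum of these 3 transcripts was 4 in LCWE fibroblasts and 2 in PBS fibroblasts, and the 90th percentile was 9 in LCWE and 5 in PBS fibroblasts.

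The peptide supply genes differed unevenly. Tap1 was at 31.4 CPM in LCWE fibroblasts and 13.6 CPM in PBS fibroblasts (2.31, 1.80 to 2.97), while its partner Tap2 was at 32.0 CPM in LCWE and 25.3 CPM in PBS cells (1.26, 1.04 to 1.54) and Tapbp at 269.5 CPM in LCWE and 209 CPM in PBS cells (1.29, 1.21 to 1.38). Both of these partners stayed under 1.5-fold. Calr, Canx and Pdia3, which fold and load the heavy chain, had ratios of 1.34, 1.27 and 1.12, and none of the 5 loading and trimming genes passed the rule. Nlrc5 had 48 UMIs in LCWE fibroblasts and 2 UMIs in PBS fibroblasts, a ratio of 14.6 whose interval runs over 3.83 to 124.

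All 3 immunoproteasome subunits were higher, and their constitutive counterparts were not. Psmb8 was at 90.2 CPM in LCWE fibroblasts and 41.1 CPM in PBS fibroblasts (2.20, 1.91 to 2.54), Psmb9 at 28.0 CPM in LCWE and 14.5 CPM in PBS cells (1.94, 1.52 to 2.49), and Psmb10 at 63.9 CPM in LCWE and 36.8 CPM in PBS cells (1.74, 1.49 to 2.03). The ratios of Psmb5, Psmb6 and Psmb7 were 0.95, 0.861 and 0.966. As a share of each catalytic pair's UMIs, Psmb8 made up 47.4% (45.1 to 49.6) in LCWE fibroblasts and 28.0% (25.1 to 31.1) in PBS fibroblasts. Psmb9 made up 20.6% in LCWE and 10.3% in PBS fibroblasts, and Psmb10 56.8% in LCWE and 42.3% in PBS fibroblasts. None of the other 11 core particle subunits passed the rule in either direction, and of the activator and assembly genes Psme1 (PA28 alpha) did, at 118 CPM in LCWE and 78.1 CPM in PBS fibroblasts (1.52).

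**Figure D2:**
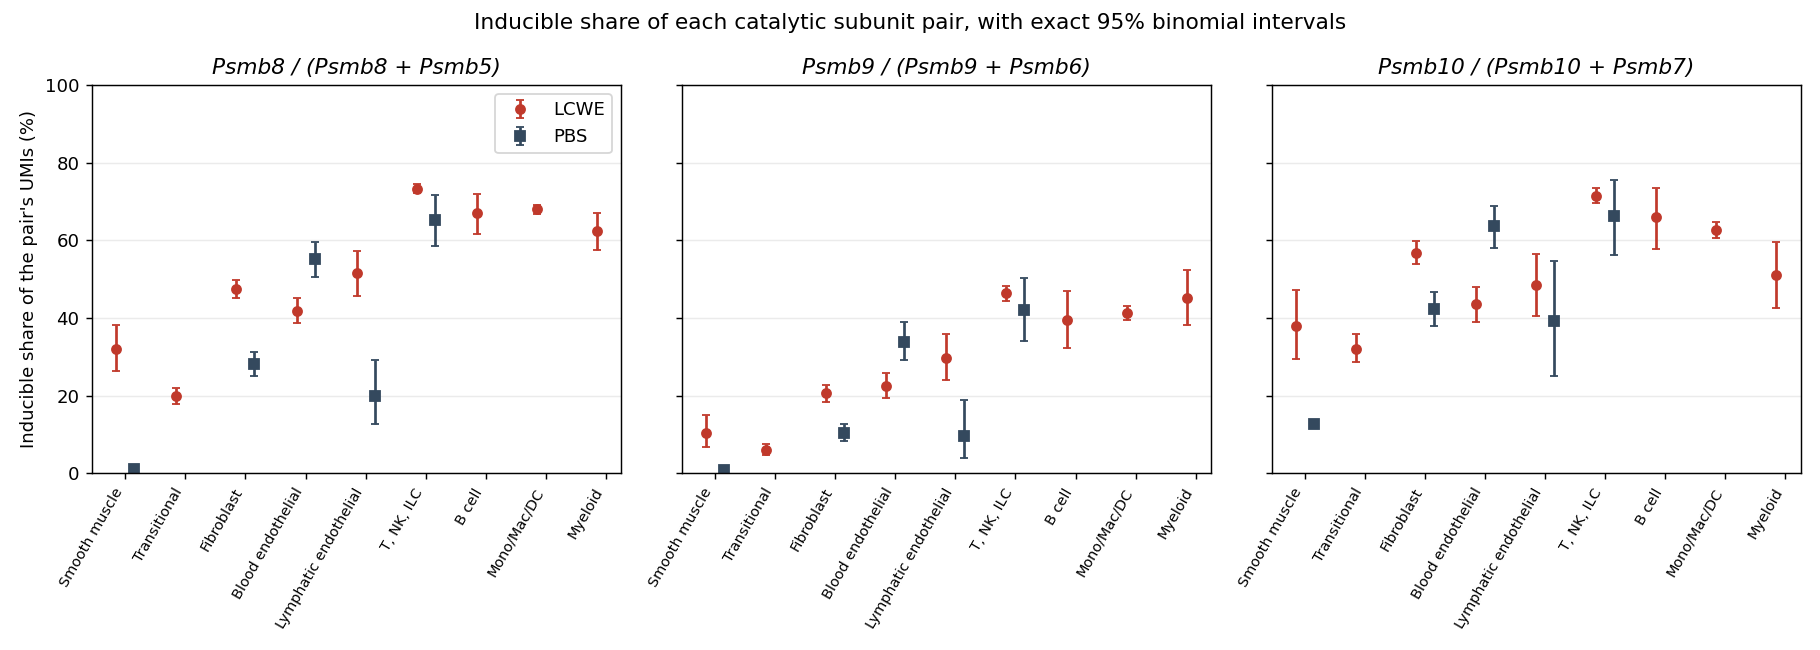
Share of UMIs (%) from the inducible member of each catalytic pair, over all cells of a class, LCWE as circles left of PBS as squares, with exact 95% binomial intervals. In fibroblasts all 3 LCWE shares lie above the PBS shares (47.4% in LCWE and 28.0% in PBS for Psmb8), and in blood endothelial cells all 3 lie below (41.8% in LCWE and 55.2% in PBS for Psmb8).

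The regulators did not form a single direction in fibroblasts. Of 12 measured transcription factors 5 were higher and 1 lower. Irf7, induced by type I interferon, was at 130 CPM in LCWE and 26.3 CPM in PBS fibroblasts (4.96), whereas Irf1, an activator of class I and immunoproteasome genes, was at 103 CPM in LCWE and 212 CPM in PBS fibroblasts (0.485). The other class I genes also split: of 8 measured, 4 were higher, among them H2-T23 (1.70, the Qa-1 heavy chain), and 2 lower, H2-Q4 (0.587) and, named after its value was seen, Mr1 (0.588, which presents vitamin B metabolites).

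In fibroblasts without leukocyte-marker UMIs (543 LCWE cells, 859 PBS cells) 8 of the 10 genes passed the rule, against 13.1% of all measured genes, with ratios of 1.65 for H2-K1, 1.83 for B2m, 1.99 for Psmb8 and 1.71 for Psmb9. In LCWE fibroblasts with a UMI of Chl1, a gene with no UMI in any PBS fibroblast, levels were higher (481 cells, H2-K1 808, B2m 1334 and Psmb8 98.9 CPM) than in the 332 LCWE fibroblasts without one (682, 1010.5 and 70.1 CPM). Median UMIs per cell were 14431 in the 481 cells and 7502.5 in the 332, and the part of depth in this split was not tested. Those 332 cells alone had 5 genes past the rule against PBS, where 12.1% of all measured genes were higher: H2-K1 1.53, B2m 1.59, Tap1 1.96, Psmb8 1.71 and Psmb9 1.66. With both kinds of cells left out, the ratios were 1.45 for H2-K1, 1.43 for H2-D1 and 1.47 for B2m, with lower bounds of 1.36, 1.34 and 1.39, and 2 genes, Psmb8 (1.59) and Psmb9 (1.51), passed the rule, against 9.55% of all measured genes. Median UMIs per cell were 11494 in LCWE and 6215 in PBS fibroblasts, and after thinning 7 of the 10 genes passed, against 11.8% of all measured genes. After subtracting free leukocyte RNA at the median marker ratio 5 passed, against 12.2% of all, and at the highest ratio 3, against 10.9%. The highest ratio was taken with Lsp1 and Arhgdib left out of the leukocyte genes. Lsp1 was at 272 CPM in LCWE fibroblasts and 487 CPM in LCWE leukocytes.

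In smooth muscle cells 9 of the 10 genes were higher in LCWE cells, and 3 were when cells with leukocyte-marker UMIs were left out of both libraries. By the same rule 11.4% of 12817 measured genes were higher and 5.24% lower. The gene that did not pass in the 93 LCWE cells was Tapbp (1.33). H2-K1 was at 519.5 CPM in LCWE and 122 CPM in PBS cells (4.26), and Psmb8 at 92.7 CPM in LCWE and 1.95 CPM in PBS cells (47.7, 35.2 to 64.3). The 4141 PBS cells together held 104 UMIs of Psmb8. The inducible shares over all cells were 32.0% in LCWE and 0.97% in PBS cells for Psmb8 and 10.3% in LCWE and 0.763% in PBS cells for Psmb9. Of the 81 LCWE UMIs of Psmb8, 74 came from the 34 cells with a leukocyte-marker UMI. H2-D1 (3.03), B2m (2.14), Tap1 (4.97), Tap2 (2.35), Nlrc5 (9.99), Psmb9 (14.6) and Psmb10 (4.10) were the other higher genes.

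The 93 LCWE cells differed among themselves by the leukocyte markers. The 34 cells with a marker UMI had 1121 CPM of H2-K1 and 231 CPM of Psmb8, and the 59 cells without had 172 CPM (139 to 210) and 12.6 CPM (5.08 to 26.1). In those 59 cells B2m was at 276 CPM, against 269 CPM in the 4113 PBS cells without a marker UMI (1.03, 0.871 to 1.21), Tapbp at 101 CPM in LCWE against 102 CPM in PBS cells (0.989), and H2-D1 at 166 CPM in LCWE against 134 CPM in PBS cells (1.24, 0.995 to 1.52). The ratio of H2-K1 was 1.41 (1.14 to 1.73). Tap1, Tap2 and Nlrc5 had 5, 9 and 2 UMIs in the 59 cells, and their intervals include 1, so that no difference was detectable at this depth. Median UMIs per cell were 7693 in the 34 cells and 8927 in the 59.

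Psmb8, Psmb9 and Psmb10 alone passed the rule among these cells, against 7.15% of all measured genes that were higher in them. These ratios rest on 7, 6 and 14 LCWE UMIs. Psmb8 was at 12.6 CPM in LCWE and 1.88 CPM in PBS cells (6.72, 2.63 to 14.4), Psmb9 at 10.8 CPM in LCWE and 1.96 CPM in PBS cells (5.54, 1.99 to 12.5), and Psmb10 at 25.3 CPM in LCWE and 12.8 CPM in PBS cells (1.98, 1.07 to 3.34). The constitutive subunits had ratios of 0.991, 0.972 and 0.977 over all smooth muscle cells. Smooth muscle markers (Myh11, Acta2, Tagln and Cnn1) summed to 38475 CPM in LCWE and 45840 CPM in PBS smooth muscle cells. Endothelial markers, over all smooth muscle cells, summed to 198 CPM in LCWE and 10.9 CPM in PBS cells, and fibroblast markers to 1922 CPM in LCWE and 1143 CPM in PBS cells. Their part in the result was not tested.

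**Figure D3:**
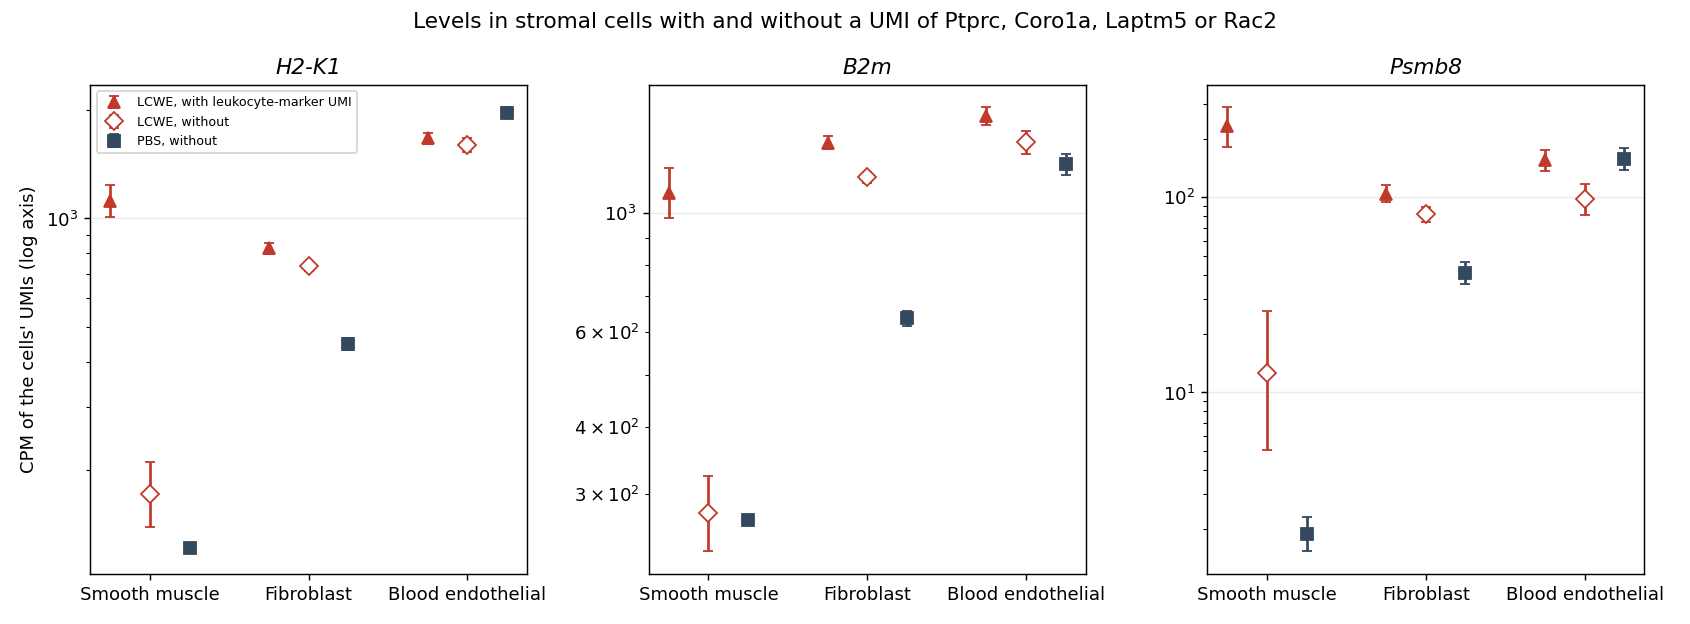
CPM (log axis, 95% Poisson intervals) of H2-K1, B2m and Psmb8 in LCWE cells with (triangles) and without (open diamonds) a UMI of 4 leukocyte genes, and in PBS cells without (squares). In smooth muscle, H2-K1 was at 1121, 172 and 122 CPM in these sets, and in fibroblasts both LCWE sets lie above PBS.

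The class that the authors call VSMC/Fibro transitional has 283 LCWE cells and no PBS cell. H2-K1 was at 337 CPM, H2-D1 at 302, B2m at 584 and Psmb8 at 47.2 CPM, the lowest of the 8 LCWE broad classes for all but B2m, where smooth muscle was at 576 CPM. Without leukocyte-UMI cells smooth muscle was below the transitional class for H2-K1, H2-D1 and Psmb8 too, with overlapping intervals for H2-K1 and H2-D1. Of its cells 117 had a leukocyte-marker UMI, with H2-K1 at 504 CPM; the 166 without had H2-K1 at 199.7 CPM (185 to 216), B2m at 468 CPM and Psmb8 at 33.3 CPM (27.3 to 40.3). H2-D1 was at 196 CPM in these 166 cells. In the 59 LCWE smooth muscle cells without such UMIs, H2-K1 was at 172 CPM, H2-D1 at 166, B2m at 276 and Psmb8 at 12.6 CPM (5.08 to 26.1). The transitional class has no PBS value.

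Endothelial cells hold blood and lymphatic cells, whose ratios are also given apart. Over all 327 LCWE and 246 PBS endothelial cells, none of the 10 genes was higher and Tapbp was lower (0.660), where 14.7% of 10925 measured genes were higher and 10.4% lower. In blood endothelial cells (239 LCWE, 217 PBS) Tap1, Tapbp and Psmb10 were lower and none was higher, against 16.1% of 10319 measured genes higher and 11.8% lower. In lymphatic endothelial cells (88 LCWE, 29 PBS, below the minimum of 50 cells and added once values were known) 6 of the 9 measured genes were higher and none lower, against 8.1% of 7296 measured genes higher and 6.59% lower.

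Of the 3 PBS fine classes with at least 50 cells, blood endothelial cells were highest for all 10 genes, above fibroblasts and smooth muscle. H2-D1 was at 1751 CPM in LCWE and 2618 CPM in PBS cells (0.669, 0.642 to 0.696), and H2-K1 at 1641 CPM in LCWE and 1989 CPM in PBS cells (0.825, 0.789 to 0.862). B2m went the other way at 1454 CPM in LCWE and 1235 CPM in PBS cells (1.18, 1.12 to 1.24). The 2 heavy chains and their light chain thus differed in opposite senses, all under 1.5-fold.

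For peptide supply, Tap1 was at 33.0 CPM in LCWE and 56.4 CPM in PBS blood endothelial cells (0.584, 0.436 to 0.784), Tap2 at 44.1 CPM in LCWE and 61.2 CPM in PBS cells (0.720) and Tapbp at 234 CPM in LCWE and 374 CPM in PBS cells (0.625, 0.560 to 0.698). Psmb8 was at 132 CPM in LCWE and 160.3 CPM in PBS cells (0.823), Psmb9 at 50.8 CPM in LCWE and 73.8 CPM in PBS cells (0.688) and Psmb10 at 69.6 CPM in LCWE and 119.5 CPM in PBS cells (0.583, 0.477 to 0.712), while Psmb5, Psmb6 and Psmb7 had ratios of 1.41, 1.22 and 1.32. The inducible shares were accordingly 41.8% in LCWE and 55.2% in PBS cells for Psmb8, 22.5% in LCWE and 33.9% in PBS cells for Psmb9, and 43.5% in LCWE and 63.6% in PBS cells for Psmb10. Of 12 measured transcription factors 2 were higher and 1 lower, and of 6 measured interferon and receptor genes 3 were higher and 0 lower. The lower one was Irf1, at 92.8 CPM in LCWE and 237 CPM in PBS cells (0.392). Nlrc5 did not differ beyond counting error (0.965, 0.523 to 1.83).

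In blood endothelial cells without leukocyte-marker UMIs (128 LCWE, 210 PBS) Psmb8 was at 98.1 CPM in LCWE and 158 CPM in PBS cells (0.622) and Psmb9 at 42.4 CPM in LCWE and 76.0 CPM in PBS cells (0.558), and 5 of the 10 genes were lower, against 9.5% of all measured genes. Median UMIs per cell were 10121 in LCWE and 5846 in PBS blood endothelial cells. Smooth muscle markers summed to 1810 CPM in LCWE and 708 CPM in PBS blood endothelial cells, fibroblast markers to 432 CPM in LCWE and 121 CPM in PBS cells, and endothelial markers to 4375 CPM in LCWE and 6042 CPM in PBS cells. The part of these or of depth in the result was not tested.

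In lymphatic endothelial cells the heavy chains, B2m and the 3 immunoproteasome subunits were higher. H2-K1 was at 1642 CPM in LCWE and 687 CPM in PBS cells (2.39, 2.09 to 2.74), H2-D1 at 1753 CPM in LCWE and 908 CPM in PBS cells (1.93), and B2m at 1288 CPM in LCWE and 506 CPM in PBS cells (2.54, 2.18 to 2.98). Psmb8 was at 179.6 CPM in LCWE and 52.5 CPM in PBS cells (3.42, 2.14 to 5.75), Psmb9 at 80.2 CPM in LCWE and 18.4 CPM in PBS cells (4.37, 2.01 to 11.3) and Psmb10 at 88.1 CPM in LCWE and 47.2 CPM in PBS cells (1.87). LCWE lymphatic cells thereby stood at the level of LCWE blood endothelial cells for H2-K1 (1642 CPM in lymphatic and 1641 CPM in blood cells) and H2-D1 (1753 CPM in lymphatic and 1751 CPM in blood cells).

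Tapbp did not differ in lymphatic cells (1.05, 0.783 to 1.41), and Tap1 (1.49) and Tap2 (1.70) had intervals that include 1. Nlrc5 had 14 UMIs in LCWE and 1 UMI in PBS lymphatic cells. The Psmb9 share of its pair was 29.6% (23.9 to 35.8) in LCWE and 9.59% (3.94 to 18.8) in PBS cells. Against the 29 PBS cells, the 68 LCWE cells without a leukocyte-marker UMI had 6 genes higher (H2-K1 2.33, Psmb8 2.51), against 8.11% of all measured genes. Lymphatic markers (Prox1, Lyve1, Mmrn1) were present in both, at 4722 CPM in LCWE and 6713 CPM in PBS cells, but smooth muscle markers summed to 183 CPM in LCWE and 6559 CPM in PBS lymphatic cells; their part in the result was not tested. The difference between the blood and lymphatic ratios was not tested.

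**Figure D4:**
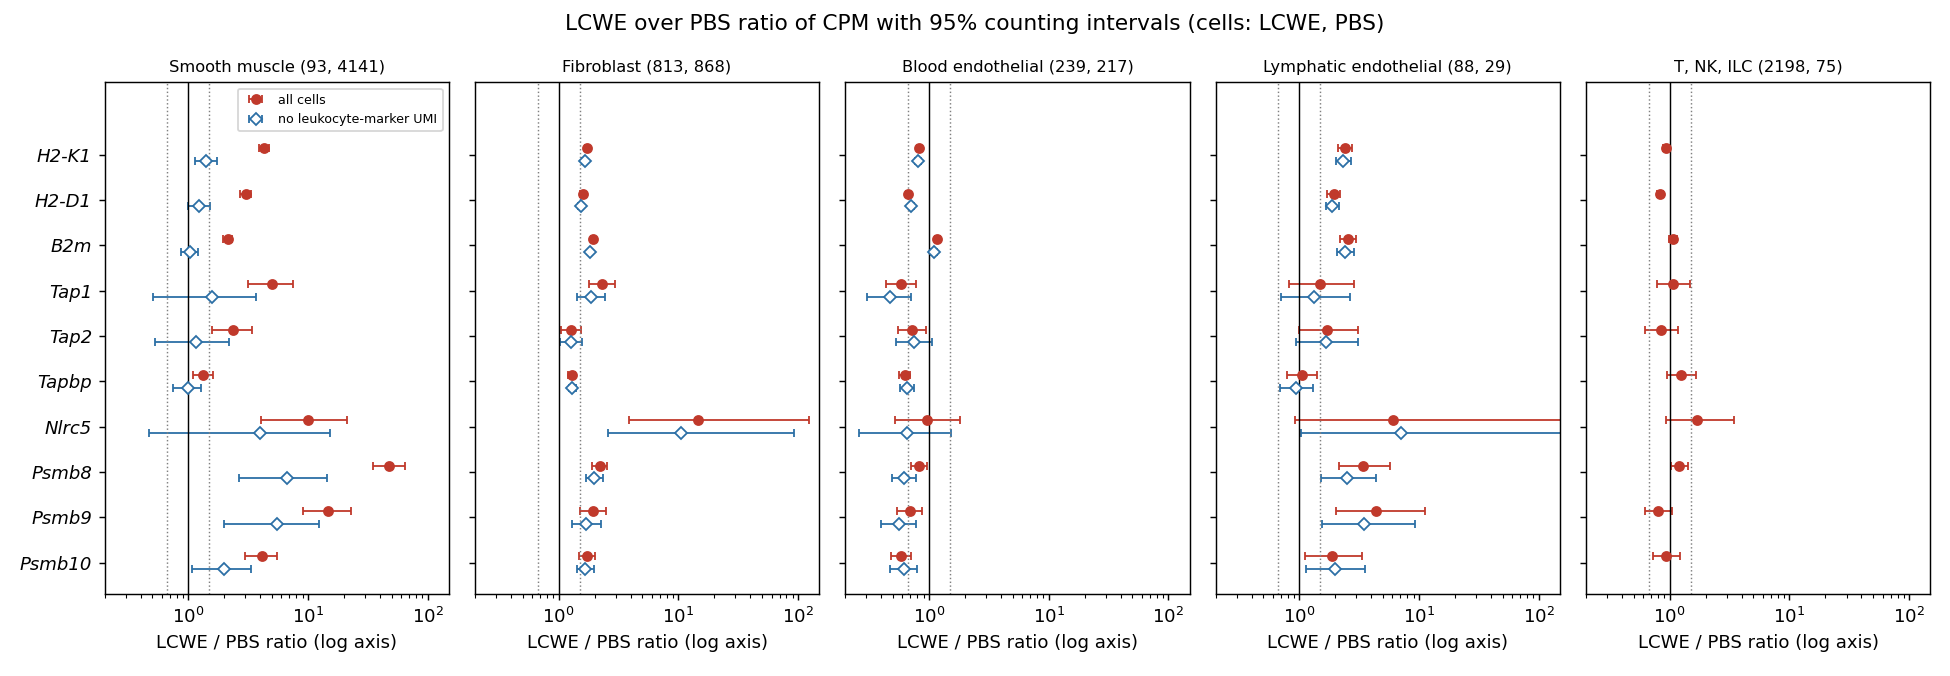
Ratio of LCWE over PBS CPM (log axis) for the 10 genes in 5 classes, all cells as filled circles and cells without a leukocyte-marker UMI as open diamonds, with exact 95% counting intervals; dotted lines mark 1.5-fold. Smooth muscle ratios shrink from filled to open symbols (H2-K1 4.26 and 1.41). In fibroblasts the H2-K1 ratio changes less (1.72 and 1.65), and that of Tap1 shrinks more than that of H2-K1. Fibroblast Tap1 was at 31.4 CPM in LCWE and 13.6 CPM in PBS over all cells. Without marker UMIs it was at 25.6 CPM in LCWE and 13.8 CPM in PBS fibroblasts. Over all cells, blood and lymphatic endothelial ratios lie on opposite sides of 1 for all genes but B2m. The blood and lymphatic intervals both exclude 1 for H2-K1, H2-D1, Psmb8, Psmb9 and Psmb10. Lymphatic Tapbp was at 166 CPM in LCWE cells without a marker UMI and 176 CPM in PBS cells, below 1 as in blood cells.

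T, NK and innate lymphoid cells showed no gene past the rule, where 3.06% of 10602 measured genes were higher and 6.37% lower. H2-K1 was at 2923 CPM in 2198 LCWE cells and 3146 CPM in 75 PBS cells (0.929, 0.879 to 0.983), H2-D1 at 2069.7 CPM in LCWE and 2484 CPM in PBS cells (0.833), and B2m at 2009 CPM in LCWE and 1879 CPM in PBS cells (1.07, 0.995 to 1.15). Psmb8 was at 423 CPM in LCWE and 352 CPM in PBS cells (1.20, 1.02 to 1.43) and Psmb9 at 123 CPM in LCWE and 155 CPM in PBS cells (0.795, 0.617 to 1.04). These lymphocytes were thus class I-rich in both libraries. The ratios of Tap1, Tap2, Tapbp, Nlrc5 and Psmb10 were 1.07, 0.846, 1.25, 1.70 and 0.930, all with intervals that include 1. Ifng, the cytokine that induces the pathway, was at 127 CPM in LCWE and 204 CPM in PBS cells of this class (0.624). The class is made up differently in the libraries: it has 318 LCWE and 0 PBS cells named NKT, 280 LCWE and 1 PBS naive CD8 cells, and 281 LCWE and 16 PBS NK cells. NK markers summed to 177 CPM in LCWE and 366 CPM in PBS cells, and the part of this make-up in the ratios was not tested.

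Within the LCWE library, 21 fine classes have at least 50 cells. The authors' DC3 dendritic cells (59 cells) were highest for 8 of the 10 genes, with intervals that overlap those of the next class for H2-D1, Tap2 and Psmb10. Psmb8 was at 1537 CPM, against 659 CPM in the next class, proliferating T cells. Psmb9 was at 374 CPM in DC3 cells and 262 CPM in proliferating T cells, and Tap1 at 274 CPM in DC3 cells and 165 CPM in proliferating T cells. In DC3 cells Psmb8 made up 86.5% (83.9 to 88.8) of its pair and Psmb9 66.9%.

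H2-K1 was highest in regulatory and activated CD4 T cells (3768 CPM), within counting error of NK cells (3731 CPM). Nlrc5 was highest in activated CD8 T cells (93.6 CPM), within counting error of DC3 cells (71.3 CPM). With all cells counted, the low end was the transitional class for most genes, with neutrophils lowest for Psmb10 (29.1 CPM) and naive CD8 T cells lowest for Tapbp (133 CPM). The highest class exceeded the lowest 32.6-fold for Psmb8, 30.5-fold for Psmb9 and 38.7-fold for Nlrc5 (22.2 to 72.7), and 11.2-fold for H2-K1, 5.13-fold for B2m and 2.72-fold for Tapbp. Of 20 pairs of neighbouring classes in each order, intervals overlapped in 13 for H2-K1, 14 for Psmb8, 16 for B2m and in all 20 for Nlrc5 and Psmb10, so neighbours were mostly not distinguishable.

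**Figure D5:**
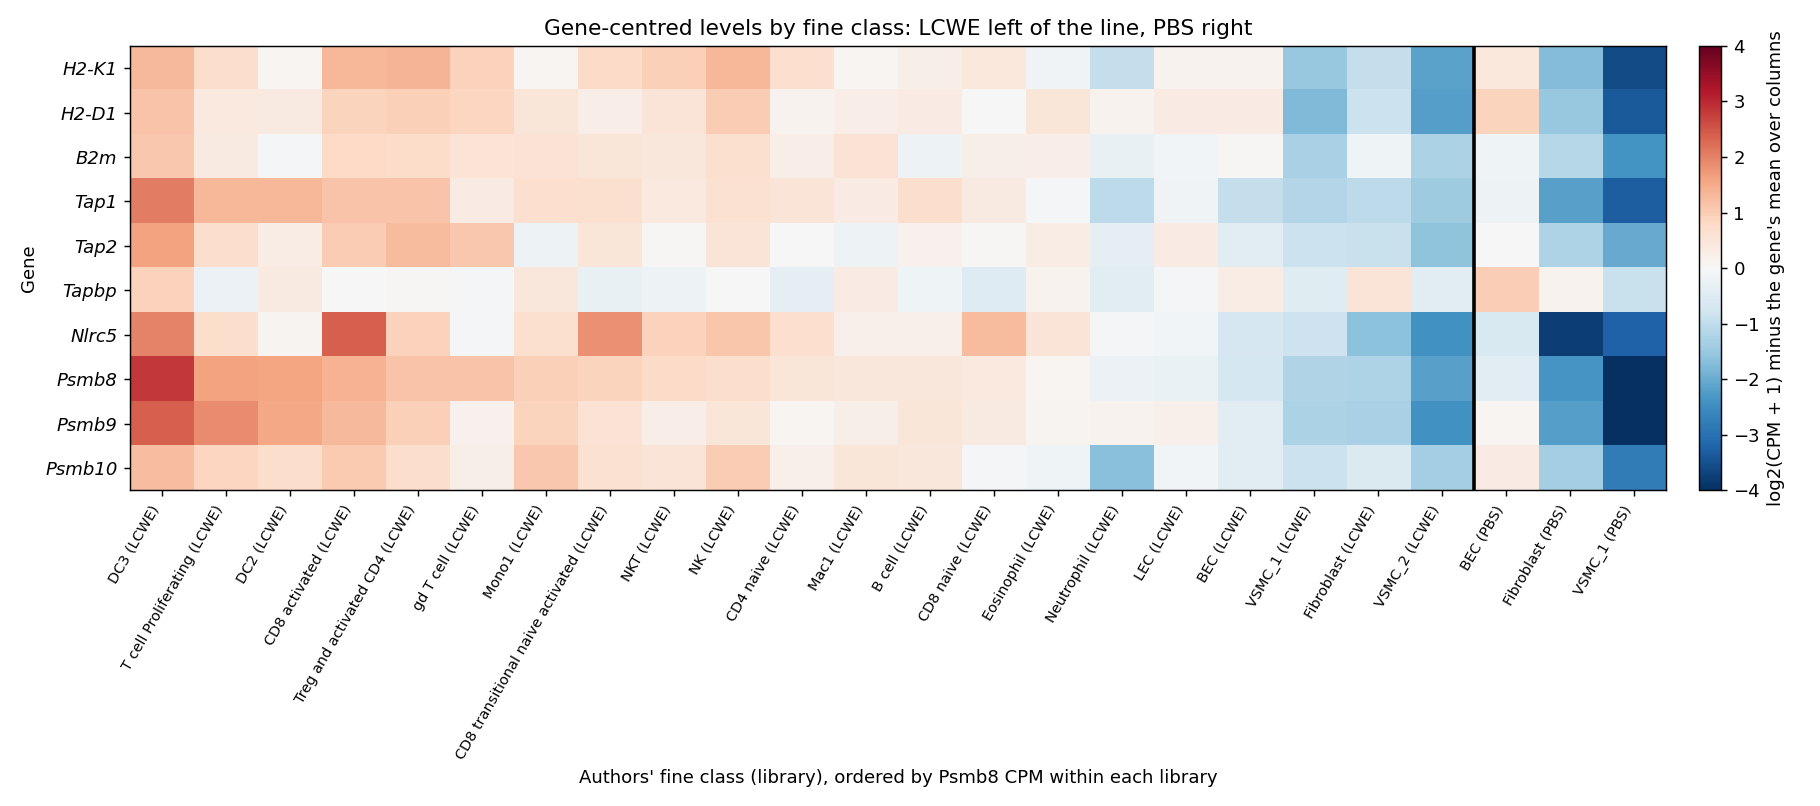
Colour gives log2(CPM + 1) minus the gene's mean over the columns; columns are fine classes with at least 50 cells, 21 of LCWE left of the line and 3 of PBS right of it, ordered by Psmb8. Among LCWE classes DC3 cells are highest for 8 genes, and over all columns PBS smooth muscle is lowest for 9; the Tapbp row is nearly flat.

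The members followed each other across classes. Over 24 class sums (21 LCWE, 3 PBS), the Pearson correlation of a gene's log2(CPM + 1) with the mean profile of the 10 was 0.908 to 0.974 for 9 genes and 0.46 for Tapbp; this is a description across classes that share libraries. The mean profile includes the gene itself. Over the 16 leukocyte sums alone the correlation was 0.92 for Psmb8 and Tap1, 0.853 for Psmb10, 0.829 for Tap2, 0.809 for H2-K1, 0.802 for Psmb9, 0.798 for B2m, 0.753 for H2-D1, 0.684 for Nlrc5 and 0.60 for Tapbp. Among 12340 genes compared, the non-members with the most similar profile were Arrdc1 (0.917), H2-Q7 and Madd (both 0.912), Psme1 (0.910), H2-T23 (0.906), Il2rg (0.904), Traf1 (0.900) and Ptger4 (0.899). Over leukocyte sums alone Psme1 kept 0.902 and Il2rg had 0.580.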

How the data were processed

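Single-cell 3′ counts (10x V3 chemistry) of 1 LCWE and 1 PBS library were used as deposited. They are unnormalized UMI counts, deposited per gene for each cell and made with Cell Ranger 3.0.2 on mm10, per the submitters' processing notes. The deposited cell table gives the authors' class names, each cell's percent of mitochondrial UMIs and a doublet score; the authors' filters on cells are not given in the sources used here, and all listed cells were kept. No cell has fewer than 1613 UMIs.

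UMIs were summed per class and library and divided by the class total (CPM). Poisson, binomial and conditional ratio intervals were exact at 95%. Classes with 50 cells in both libraries were compared. A gene counted as higher or lower at 1.5-fold with an interval excluding 1 and 20 UMIs in both libraries together. No test, SD or p-value was possible with 1 library per group. For per-cell values each cell was thinned to 1600 UMIs. The intervals and the rule were run on Poisson counts simulated from class sums. These counts hold no variation between cells, animals or libraries, so the run could not show errors from such variation. All 10 genes are named; other pathway genes are given as counts over lists, with values for up to 4 of a list with the most UMIs, plus the 8 genes most like the set. The genes and lists were chosen with earlier results of these data known. Python 3.11.15, numpy 2.4.6, scipy 1.17.1, pandas 2.3.3, R 4.3.3 and edgeR 4.0.16 (TMM scaling only) were used.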

Additional observations from a re-analysis of the deposited data

Results flagged for a closer look

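Blood and lymphatic endothelial cells of the LCWE library lay on opposite sides of their PBS counterparts for all genes but B2m, and for 5 of the 10 genes both counting intervals exclude a ratio of 1. The log2 ratio of LCWE over PBS was -0.28 in blood and 1.26 in lymphatic endothelial cells for H2-K1, and -0.58 in blood and 0.95 in lymphatic cells for H2-D1. It was -0.28 in blood and 1.78 in lymphatic cells for Psmb8, -0.54 in blood and 2.13 in lymphatic cells for Psmb9, and -0.78 in blood and 0.90 in lymphatic cells for Psmb10. The difference between the cell types was not tested, since each treatment has 1 library, and the lymphatic values rest on 29 PBS cells. Smooth muscle markers were higher in the PBS than in the LCWE lymphatic cells, and their part was not tested.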

How the results depend on the processing

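Of 104 recomputed counts of genes past the rule 81 stayed within 1.5 times the reported count, including counts of 0 that stayed at 0. Of the recomputed ratios and shares, 431 stayed within the reported interval and 217 moved outside it. The other 2 were ratios of genes past the rule that changed direction. Changes of direction in genes not past the rule are counted among the 431 or the 217. H2-K1 in endothelial cells is such a gene, below 1 over all cells and above 1 in lymphatic cells only. In smooth muscle 9 genes were higher and 3 were with leukocyte-UMI cells left out, also when a Myh11 UMI was required as well. In fibroblasts 8 were higher, 3 at 2-fold, 5 after subtracting free RNA at the median marker ratio, 3 at the highest ratio, 5 without Chl1-positive LCWE cells and 2 without these and leukocyte-UMI cells. In endothelial cells 1 gene of the 10 was lower, against 10.4% of all measured genes. That count was 0 at 2-fold, with the interval wholly beyond 1.5-fold or without mitochondrial and ribosomal genes in the total. That count was 2 without leukocyte-UMI cells and 3 without the top 10% of doublet scores, after either subtraction or in blood endothelial cells only. In blood endothelial cells 11.8% of all measured genes were lower. The count for the 10 genes was 5 in blood endothelial cells with no leukocyte UMI. In lymphatic cells alone, with or without leukocyte-UMI cells, 6 genes were higher and 0 lower. Among lymphocytes (T, NK, ILC) the count of higher genes was 0, and 1, Nlrc5, under TMM scaling, without mitochondrial and ribosomal genes or as a mean over cells. B2m in smooth muscle reversed to a log2 ratio of -0.072 (Myh11 UMI required, no leukocyte UMI) and Tapbp in endothelial cells to 0.067 (lymphatic only). TMM scaling shifted all log2 ratios by -0.105 in smooth muscle and 0.152 in the lymphocytes. For settings with no share of all measured genes here or above, the counts were not set against that share. The causes were not tested. The subsets by leukocyte UMI and Chl1 other than the first were chosen after seeing the data. No paired analysis was possible because each group has 1 library.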
